A study of Mus musculus with 12 samples.

Results

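Glycogen is the branched glucose polymer in which liver and muscle cells keep a carbohydrate reserve, and the 9 genes described here, of 45706 listed, encode enzymes that build it or break it down and proteins that bring a phosphatase to it. They are Gyg, Ugp2, Gys1, Gys2 and Gbe1 for synthesis, Pygl and Pygb for breakdown, and Ppp1r3b and Ppp1r3c for control. The genes were taken by symbol. Gbe1 was chosen on measured values, since it had the largest rise of a hypoxia gene list when sorted cells were put in hypoxia. The others were listed for their function, but with earlier results of these data known. For the 9 genes, the comparison of sorted hypoxic with sorted normoxic cells is therefore described without p-values. Nothing is read from counts of genes past thresholds in it, and Gbe1 is tested in unsorted cells alone.

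RNA was sequenced from BN1 cells, a mouse hepatoblastoma (HB) line grown from a liver tumor that was driven by mutant forms of β-catenin and NRF2. The labels give the genotype of every library as Cdkn2a KO. The cells also carried EGFP behind the promoter of Tie2/Tek, an endothelial receptor gene, and the stable clones had been pooled, so they were neither a single clone nor a uniform population. There were 3 libraries in each of 4 groups, unsorted in normoxia (UN), unsorted in hypoxia (UH), sorted in normoxia (SN) and sorted in hypoxia (SH). Per the study's methods, SN cells were the brightest EGFP cells of a hypoxic culture, expanded in normoxia after sorting, and SH cells were such cells returned to low oxygen. The titles call all 4 groups EGFP+, and the study calls the replicates independent. Since no source used here says whether they were separate cultures, p-values measure the spread between these libraries, which may be technical. Values are in TPM, a share of each library's transcripts, and are corrected for transcript length and can be compared between genes. Read depth behind them is unknown.

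Of 11 measured genes of a short hypoxia list, 10 were higher in UH than in UN without overlap of the libraries, beside 14.9% of all genes tested, and 10 were higher in SH than in SN, beside 29.7%. Of 11 hepatocyte and hepatoblast markers, 7 had a mean of at least 1 TPM, and the list summed to between 109 and 224 TPM per library. Krt18, at 63.5 to 157 TPM, gave much of that sum. Krt8 was at 33.7 to 84.9 TPM in unsorted and at most 12.2 TPM in sorted libraries. Trf was at most 6.46 TPM in unsorted and at least 37.9 TPM in sorted libraries, and Afp at most 2.34 and at least 3.22 TPM. Apob and Hnf4a were highest in UN libraries, Alb did not exceed 4.23 TPM and Ttr did not exceed 0.474 TPM. The 10 endothelial markers summed to between 0.719 and 0.817 TPM in UN and between 7.70 and 9.87 TPM in SH libraries. Tek, whose promoter drove EGFP, was at most 0.226 TPM in unsorted and at least 2.07 TPM in sorted libraries. Plvap was at most 0.244 TPM in UN, 1.03 to 1.73 TPM in UH and SN, and 2.87 to 5.07 TPM in SH libraries. Vwf was at 0.907 to 1.56 TPM in SH libraries and at most 0.447 TPM in the others. Pecam1, Cdh5 and Kdr did not exceed 0.484, 0.0967 and 0.213 TPM. Collagens and other fibroblast and stellate markers, 10 genes in all, summed to between 1176 and 5160 TPM in UN, between 4852 and 7134 TPM in UH, between 201 and 211 TPM in SN and between 56.5 and 77.8 TPM in SH libraries. Cdkn2a transcripts ranged from 7.37 TPM in an SH library to 327 TPM in a UN library. Among the UH libraries, replicates 1 and 3 correlated across genes at r = 0.973 (Pearson), and replicate 2 at 0.983 and 0.982 with these. In the other groups, a pair of libraries stood apart. UN replicate 1 correlated across genes at r = 0.966 and 0.964 (Pearson) with the other UN libraries, which reached 0.987 with each other, and SH replicate 3 had 0.978 and 0.979, compared with 0.986 for the other SH libraries. SH replicate 3 was the lowest SH library for 11 of 11 hypoxia genes and for 7 of the 9 glycogen genes. Values without these libraries are given where leaving one out ended a call, turned a sign or clearly moved a value.

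In the pathway as it is known, glucose 1-phosphate is joined to UDP by UGP2, glycogenin (GYG) primes a chain on itself, glycogen synthase (GYS1 in most tissues, GYS2 in liver) extends the chain and the branching enzyme GBE1 adds side branches. Glycogen phosphorylase, of which PYGL is the liver form and PYGB the brain form, releases glucose 1-phosphate from chain ends. PPP1R3B and PPP1R3C tether protein phosphatase 1 to the glycogen particle, where it activates synthase and inactivates phosphorylase.

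The promoters of these genes are shown first, searched for the short DNA core that hypoxia-inducible factors are known to bind. RefSeq promoters of GRCm38.p6, from 250 bases before to 50 bases after a start site, were found for 7 of the 9 genes, with 2 starts for Ugp2. The letters ACGTG and GCGTG were searched on both strands, and a palindromic CACGTG, which is also an E-box, counts once on each strand. Capitals mark every match. Gbe1 (chr16:70313699-70313998, + strand) and Gys1 (chr7:45434589-45434888, + strand), which had the highest levels of the 9 genes in hypoxia, are shown because neither window held a match. Ppp1r3c (chr19:36736555-36736854, - strand) and Pygl (chr12:70227634-70227933, - strand) are shown as genes that rose in UH cells and had matches, and the upstream start of Ugp2 (chr11:21371218-21371517, - strand) as the window with most matches.
Gbe1: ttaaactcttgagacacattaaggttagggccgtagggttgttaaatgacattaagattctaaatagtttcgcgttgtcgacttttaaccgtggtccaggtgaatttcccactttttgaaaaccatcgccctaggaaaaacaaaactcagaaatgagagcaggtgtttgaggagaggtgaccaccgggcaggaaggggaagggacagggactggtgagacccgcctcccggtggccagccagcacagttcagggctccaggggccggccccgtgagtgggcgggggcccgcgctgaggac
Gys1: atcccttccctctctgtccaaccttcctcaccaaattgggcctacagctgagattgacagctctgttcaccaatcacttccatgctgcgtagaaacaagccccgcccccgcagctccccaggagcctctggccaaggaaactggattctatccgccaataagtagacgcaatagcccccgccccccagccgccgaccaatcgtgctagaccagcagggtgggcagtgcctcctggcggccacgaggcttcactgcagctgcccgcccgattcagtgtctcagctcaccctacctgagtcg
Ppp1r3c: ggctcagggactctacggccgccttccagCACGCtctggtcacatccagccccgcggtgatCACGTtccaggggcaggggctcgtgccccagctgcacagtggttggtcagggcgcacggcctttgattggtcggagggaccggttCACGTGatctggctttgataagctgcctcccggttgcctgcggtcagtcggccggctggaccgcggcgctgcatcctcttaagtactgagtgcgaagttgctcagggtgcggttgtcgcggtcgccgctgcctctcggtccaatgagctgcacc
Pygl: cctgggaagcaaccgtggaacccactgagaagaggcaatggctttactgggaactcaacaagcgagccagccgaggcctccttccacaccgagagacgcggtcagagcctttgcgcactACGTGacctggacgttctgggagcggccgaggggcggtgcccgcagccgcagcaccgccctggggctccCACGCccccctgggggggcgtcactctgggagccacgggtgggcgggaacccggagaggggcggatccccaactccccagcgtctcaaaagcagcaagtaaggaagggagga
Ugp2: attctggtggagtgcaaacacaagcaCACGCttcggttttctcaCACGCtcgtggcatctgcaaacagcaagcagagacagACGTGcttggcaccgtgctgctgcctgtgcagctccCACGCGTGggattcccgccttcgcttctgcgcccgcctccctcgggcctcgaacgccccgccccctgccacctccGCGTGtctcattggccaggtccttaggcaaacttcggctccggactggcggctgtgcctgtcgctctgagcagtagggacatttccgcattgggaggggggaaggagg
The Ugp2 window held 6 matches, that of Ppp1r3c held 4, that of Gyg held 3, and those of Pygl and Pygb held 2 each, while the downstream start of Ugp2 held 0. Unlike those of the other genes, the last bases of both Ugp2 windows were not found in a GENCODE M21 transcript of the gene. Among all 32851 promoters of the same length, 43.8% held at least 1 match, 20.6% at least 2 and 3.86% at least 4. A match is a description of letters, and a window without one says nothing of sites outside it.

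Differences were tested by limma on log2(TPM + 1), fitted to all 12 libraries and to the 18909 genes with a mean of at least 0.1 TPM. Calls needed more than a 2-fold change and an adjusted p (Benjamini-Hochberg, over all genes) under 0.05, and SE is the standard error of a log2 fold change. Of the 9 genes, 8 passed the filter, and Gys2 did not. In unsorted cells (UH vs UN), 5 of the 8 were called higher and 1 lower, a share of 75% that stands beside 17.2% of all genes tested (5.46% higher and 11.8% lower). The members were chosen with earlier results of these data known, so this share is a description. The median log2 fold change was 2.64 for the 8 genes and -0.19 for all genes. Median-of-ratios scaling, which brought that median of all genes to 0, turned the split of all calls from 1032 higher and 2222 lower to 1564 higher and 1217 lower. It also turned that split from 1447 and 1012 to 1021 and 1323 in SH vs UH and from 1527 and 412 to 901 and 782 in the difference of responses, and quantile normalization turned it from 606 and 1431 to 840 and 1136 in SN vs UN. The values below are on the deposited scale, where the median of all genes was also 0.17 in SH vs UH and 0.25 in the difference of responses. Without overlap of their libraries, 5 of the 9 genes were higher and 2 lower, beside 14.9% and 36.2% of all genes tested, and 7 of the 8 passed the adjusted p alone, beside 46.4%.

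**Figure D1:**
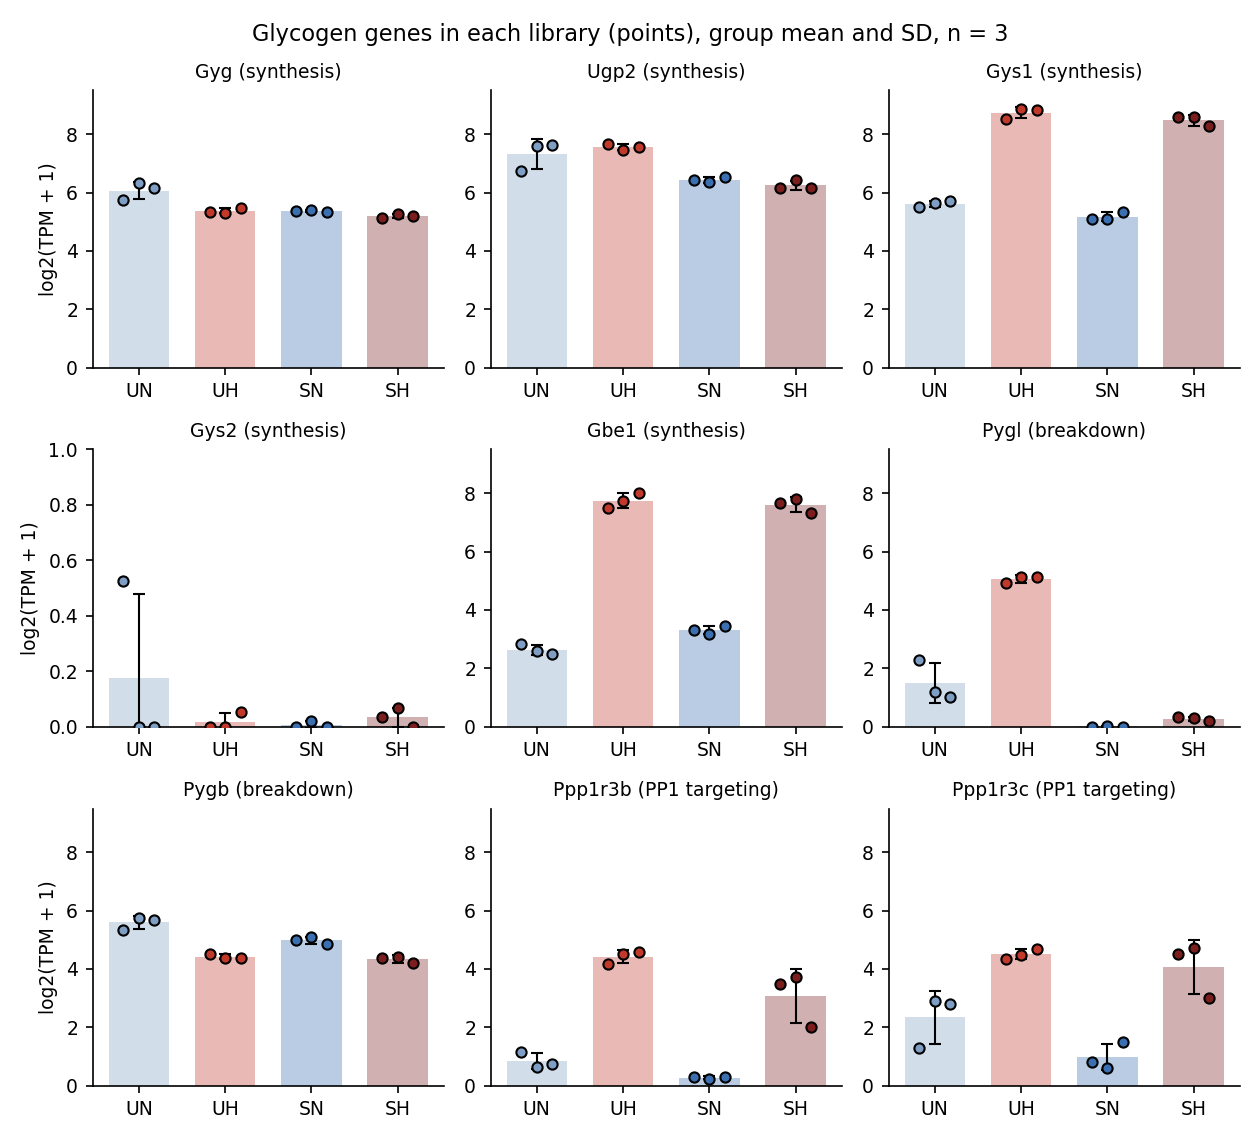
Level of each of the 9 glycogen genes as log2(TPM + 1) in the 12 libraries (points, replicates 1 to 3 from left to right), with the mean (bar) and SD (error bar) of each group. Gys1 and Gbe1 are high in both hypoxic groups, Pygl is high in UH alone, and Gys2, drawn on an axis that ends at 1, is near 0 throughout.

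Gbe1 (ENSMUSG00000022707, chromosome 16, 70313949 to 70569716, + strand) had the largest log2 fold change of the 8 genes tested in UH vs UN. The UN libraries held 6.09, 5.07 and 4.59 TPM and the UH libraries 179, 214 and 254 TPM. All UH libraries lay far above all UN libraries, and the ratio of the means was 41.1. The log2 fold change was 5.11 (SE 0.162, limma adjusted p = 3.97e-09). Sorted cells started somewhat higher, at 8.92, 7.97 and 10.1 TPM in SN libraries, and reached 204, 224 and 159 TPM in SH libraries. These are the values that chose the gene, and their log2 difference was 4.29 (SE 0.162). The ranges of the SH and UH libraries overlapped, and their log2 difference of -0.14 became 0.0024 without SH replicate 3. In rank, Gbe1 stood between the 47.0 and 49.9 percentile of genes above 0 in UN libraries and between the 96.1 and 97.4 percentile in SH libraries.

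Gys1 (ENSMUSG00000003865, chromosome 7, 45434844 to 45456619, + strand), the synthase of muscle and most other tissues, gave nearly all synthase transcripts in every library. UN libraries held 44.6, 49.0 and 51.6 TPM, and UH libraries 365, 464 and 454 TPM. It rose 8.84-fold in mean TPM, with a log2 fold change of 3.11 (SE 0.127, limma adjusted p = 1.8e-08) and without overlap of the groups. SN libraries held 32.8, 33.0 and 39.6 TPM and SH libraries 385, 381 and 307 TPM, a ratio of means of 10.2. SN cells were lower than UN cells by a log2 difference of -0.45 (limma adjusted p = 0.0164), which is under the fold threshold. The responses of sorted and unsorted cells differed by 0.20 (95% interval -0.20 to 0.59, limma adjusted p = 0.453), a difference that turned to -0.15 with median-of-ratios scaling. Gys1 overlaps Ruvbl2 on the opposite strand, which reached 173 TPM. The libraries were stranded, but how strand was used in quantification is not given in the sources used here.

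Gys2 (ENSMUSG00000030244), the liver synthase, was listed at 0 in 7 of 12 libraries. Its highest value was 0.438 TPM, in UN replicate 1, and no other library exceeded 0.0478 TPM. It therefore made up at most 0.973% of the TPM of the synthase genes in any library, and no test was made.

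The first steps of synthesis behaved differently from Gys1 and Gbe1. Gyg (ENSMUSG00000019528), the primer of the chain, had 52.1, 78.5 and 70.3 TPM in UN libraries and 39.6, 38.7 and 43.8 TPM in UH libraries. Every UH library was below every UN library, but the log2 fold change of -0.69 (SE 0.131, limma adjusted p = 0.00111) stayed under the fold threshold. It was -0.34 with median-of-ratios scaling and -0.41 with quantile normalization. SN libraries lay between 39.1 and 41.0 TPM and SH libraries between 34.4 and 37.9 TPM, so that SN, like UH, lay below UN (log2 difference -0.71, limma adjusted p = 0.00152). Ugp2 (ENSMUSG00000001891), which makes the UDP-glucose that synthase uses, had 106, 193 and 196 TPM in UN libraries and 204, 174 and 189 TPM in UH libraries. These groups overlapped, with a log2 fold change of 0.25 (95% interval -0.19 to 0.68, limma adjusted p = 0.34), which turned to -0.05 without UN replicate 1.

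Ugp2 separated the groups by sorting. SN libraries held 84.8, 80.5 and 91.9 TPM and SH libraries 69.9, 85.1 and 71.1 TPM, and in hypoxia Ugp2 was called lower in sorted than in unsorted cells, with a log2 fold change of -1.32 (SE 0.198, limma adjusted p = 0.000274). In normoxia the log2 fold change of -0.88 (limma adjusted p = 0.00494) did not reach the fold threshold, and without UN replicate 1 it was -1.17 and did.

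Pygl (ENSMUSG00000021069, chromosome 12, 70190811 to 70231488, - strand), the liver phosphorylase, was the tested member whose response to hypoxia differed between sorted and unsorted cells. It was at 3.86, 1.25 and 1.03 TPM in UN libraries and rose to 29.3, 34.2 and 34.3 TPM in UH libraries, a log2 fold change of 3.58 (SE 0.265, limma adjusted p = 1.08e-06). In SN libraries it was listed at 0, 0.0139 and 0 TPM, and in SH libraries it stood at 0.243, 0.224 and 0.137 TPM. The SH libraries were thus above all SN libraries and below all UN libraries. Sorted cells were called lower both in normoxia, with a log2 fold change of -1.49 (limma adjusted p = 0.00117), or -1.09 without UN replicate 1, and in hypoxia, with -4.80 (limma adjusted p = 1.34e-07). The response to hypoxia itself was smaller in sorted cells by 3.32 on the log2(TPM + 1) scale, tested as an interaction (difference -3.32, 95% interval -4.14 to -2.50, limma adjusted p = 0.000182). This holds for that scale, on which values under 1 TPM count little. As ratios of mean TPM, SH was 43.7 times SN and UH was 15.9 times UN, with SN listed at 0 in 2 of 3 libraries. With a pseudocount of 0.1, the log2 difference was 1.51 in SH vs SN, where it was 0.26 with 1, and -4.13 in SN vs UN, and the difference of responses was -2.65. The summed fibroblast and stellate markers were also higher in every unsorted library (at least 1176 TPM) than in every sorted one (at most 211 TPM), and UN replicate 1 was the highest UN library for both. Of these 10 markers 8 had a mean of at least 1 TPM, Lrat was at 0 in every library, and the collagen genes Col1a1, Col1a2 and Col3a1 gave most of the sum in unsorted cells. Other markers of the list went with Pygl only in part. Acta2 was at least 162 TPM in unsorted and at most 34.7 TPM in sorted libraries, and UN replicate 1 was its highest library. Pdgfra was at 80.4 to 176 TPM in UN, 19.1 to 37.5 TPM in UH and at most 2.17 TPM in sorted libraries. Pdgfrb was at least 28.4 TPM in UN and at most 17.3 TPM in UH libraries. Dcn was higher in SN than in UH libraries, and Des was highest in SH libraries. The part of these markers in the result was not tested. In bulk RNA, fewer cells that express a gene and less of its RNA per cell cannot be told apart.

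Pygb (ENSMUSG00000033059), the brain phosphorylase, moved the other way. UN libraries held 39.6, 53.3 and 50.1 TPM and UH libraries 22.1, 19.6 and 19.9 TPM, with no overlap, and it was called lower with a log2 fold change of -1.17 (SE 0.126, limma adjusted p = 1.74e-05). With median-of-ratios scaling the change was -0.82 and with quantile normalization -0.86, both under the fold threshold. SN libraries lay between 28.1 and 33.2 TPM and SH libraries between 17.3 and 20.5 TPM, so that SH also lay below SN. SH and UH libraries overlapped (log2 difference -0.09, 95% interval -0.37 to 0.19, limma adjusted p = 0.599).

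Together with Pygm, the muscle form, the phosphorylase genes summed to 51.0 ± 4.70 TPM in UN and 54.5 ± 1.53 TPM in UH cells (SD, n = 3). On the deposited scale the sums differed by less than the SD of the UN libraries, which is no test of equality. Median-of-ratios size factors were 1.06 to 1.16 in UN and 0.781 to 0.962 in UH libraries, so that scaling would raise the UH relative to the UN sum. The share of Pygl, which scaling leaves as it is, was 4.22% ± 3.63 in UN and 59.8% ± 3.88 in UH cells. In UN cells that share was 8.42% in replicate 1 and 2.27% and 1.98% in the others. In sorted cells the sum was 32.5 ± 2.52 TPM in SN and 22.2 ± 2.65 TPM in SH (SD, n = 3), and Pygl gave at most 0.996% of it in any library.

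**Figure D2:**
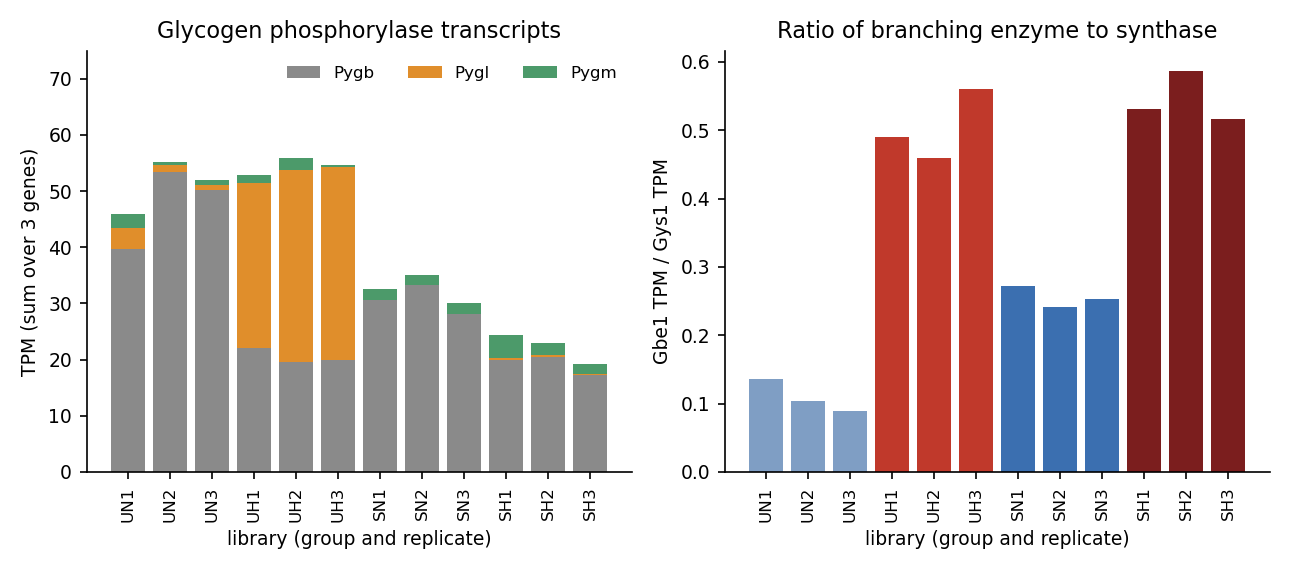
Left, TPM of Pygb, Pygl and Pygm stacked in each of the 12 libraries. Right, the ratio of Gbe1 TPM to Gys1 TPM in the same libraries, which lies between 0.0890 and 0.136 in UN, 0.460 and 0.560 in UH, 0.242 and 0.272 in SN, and 0.517 and 0.587 in SH.

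The branching enzyme and the synthase did not keep a fixed proportion. The ratio of Gbe1 to Gys1 TPM was 0.110 ± 0.0243 in UN and 0.503 ± 0.0514 in UH cells, and 0.256 ± 0.0152 in SN and 0.545 ± 0.0371 in SH cells (SD, n = 3). In each pair the hypoxic libraries lay above the normoxic ones, and SN libraries lay above UN libraries.

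Ppp1r3b (ENSMUSG00000046794), the phosphatase targeting subunit most abundant in liver, was at 1.23, 0.544 and 0.664 TPM in UN libraries and at 16.9, 21.7 and 23.2 TPM in UH libraries. It rose by a log2 fold change of 3.58 (SE 0.356, limma adjusted p = 9.28e-06), and the ratio of means was 25.3. SN libraries held 0.221, 0.165 and 0.237 TPM and SH libraries 10.2, 12.1 and 3.06 TPM, with SH replicate 3 well below the others. In hypoxia sorted cells were called lower, with a log2 fold change of -1.35 (SE 0.356, limma adjusted p = 0.0100). That call was lost without SH replicate 3 (log2 fold change -0.82) and in a fit of the SH and UH libraries alone, where the adjusted p was 0.0655 (limma).

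Ppp1r3c (ENSMUSG00000067279), also known as protein targeting to glycogen, was at 1.47, 6.50 and 5.97 TPM in UN libraries and at 19.4, 21.2 and 24.9 TPM in UH libraries. The rise had a log2 fold change of 2.17 (SE 0.481, limma adjusted p = 0.00296), and without UN replicate 1 it was 1.65. SN libraries held 0.769, 0.534 and 1.80 TPM and SH libraries 21.8, 25.1 and 7.08 TPM, again with SH replicate 3 the lowest. The groups overlapped in SN vs UN, where the log2 fold change was -1.36 and the adjusted p of 0.0471 (limma) lay just under the threshold. Without UN replicate 1, the lowest UN library, the log2 fold change was -1.88 and the call was kept. Over the alternatives that lost this call the adjusted p ranged up to 0.172 (limma), without UN replicate 2. In SH vs UH the log2 fold change was -0.43 (95% interval -1.48 to 0.63, limma adjusted p = 0.506), and it turned to 0.10 without SH replicate 3. The ratio of Ppp1r3b to Ppp1r3c TPM was 0.943 ± 0.0749 in UH and 0.461 ± 0.0262 in SH cells (SD, n = 3), and this ratio in SH replicate 3 was 0.432, close to the 0.468 and 0.483 of the other SH libraries.

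**Figure D3:**
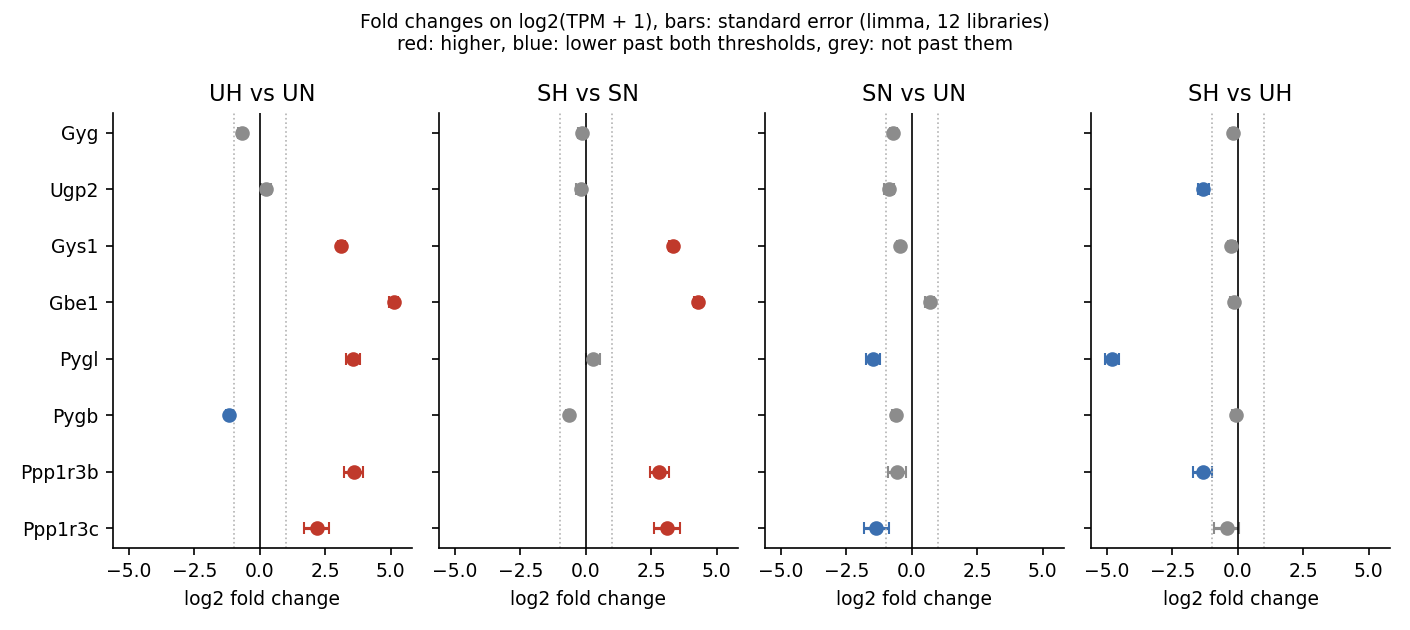
Log2 fold change on the log2(TPM + 1) scale with its standard error for the 8 glycogen genes that passed the filter, in 4 comparisons. Red and blue points are higher and lower past both thresholds, and dotted lines mark the fold threshold. In SH vs SN, which served to choose Gbe1, nothing is read from the colors. The 5 red points in UH vs UN lie between 2.17 and 5.11.

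Set side by side, the sorted cells had 4 of the 8 genes past the thresholds on hypoxia, all higher, namely Gys1, Gbe1, Ppp1r3b and Ppp1r3c, where the background was 12.5% of all genes in either direction (7.47% higher and 5% lower). Libraries did not overlap for 5 genes that were higher and 2 that were lower, beside 29.7% and 27.1%. Nothing is read from these counts, since the comparison served to choose Gbe1. The log2 differences in SH vs SN were 3.31 for Gys1, 4.29 for Gbe1, 2.80 for Ppp1r3b and 3.10 for Ppp1r3c, and those of Gyg, Ugp2, Pygl and Pygb were -0.16, -0.19, 0.26 and -0.64. Without SH replicate 3, the value was 3.33 for Ppp1r3b and 3.63 for Ppp1r3c. In normoxia (SN vs UN), 2 of the 8 genes, Pygl and Ppp1r3c, were called lower and 0 higher, a share of 25% beside 10.8% of all genes (3.2% higher and 7.57% lower). Libraries did not overlap for 1 gene that was higher, Gbe1, and for 6 that were lower, beside 20.3% and 28.7% of all genes. With Gbe1 left out, 6 genes passed the adjusted p alone, all lower, beside 33.9%. In hypoxia (SH vs UH), 3 of the 8, Ugp2, Pygl and Ppp1r3b, were called lower and 0 higher, beside 13% of all genes (7.65% higher and 5.35% lower), and the same 3 passed the adjusted p alone, beside 41.7%. There 4 genes were lower without overlap and 0 higher, beside 17.2% and 34.5%. A difference of responses past the thresholds was seen for Pygl, 1 of the 8, beside 10.3% of all genes (8.08% higher and 2.18% lower). With Gbe1 left out, Pygl was also the 1 gene that passed the adjusted p alone, beside 22%. In SN vs UN, SH vs UH and the difference of responses Gbe1 is 1 of the 8 and was not called, and its values there are a description.

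The order of the levels changed between groups. In UN cells Ugp2 was highest, at 165 ± 51.4 TPM, followed by Gyg at 67.0 ± 13.5, Gys1 at 48.4 ± 3.51 and Pygb at 47.7 ± 7.16 TPM (SD, n = 3), and the libraries of Gys1 and Pygb overlapped. In UH cells Gys1, at 428 ± 54.9 TPM, stood first, and Gbe1, at 216 ± 37.9 TPM, and Ugp2, at 189 ± 14.9 TPM, followed with overlapping libraries (SD, n = 3). The order in SN cells was Ugp2 (85.7 ± 5.79 TPM), Gyg (40.1 ± 0.926), Gys1 (35.1 ± 3.89) and Pygb (30.6 ± 2.57), and in SH cells it was Gys1 (358 ± 43.8 TPM), Gbe1 (196 ± 33.4), Ugp2 (75.4 ± 8.43) and Gyg (35.9 ± 1.77), with SD and n = 3 throughout.

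Other genes of the pathway were examined as a list of 30, of which 27 passed the filter and 3, Ppp1r3a and G6pc among them, did not. This list was also chosen with earlier results of these data known, so its shares are a description. In UH vs UN, 7 of the 27 were called higher and 1 lower (29.6%, beside 17.2% of all genes), and among sorted cells hypoxia gave 7 higher and 0 lower calls (25.9%, beside 12.5%). The median log2 fold changes of the 27 genes were 0.21 and 0.36, and those of all genes -0.19 and 0.03. In each comparison the genes called higher were Pgm2, Hk1, Hk2, Slc37a4, Stbd1, Epm2a and Ppp1r3e.

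Upstream of the members, the gene listed as Pgm2 (ENSMUSG00000025791, chromosome 4, 99929414 to 99987294), which RefSeq names Pgm1, encodes a phosphoglucomutase that interconverts glucose 1-phosphate and glucose 6-phosphate. It rose from 42.8 ± 3.22 to 367 ± 8.32 TPM in unsorted cells (SD, n = 3; log2 fold change 3.07, limma adjusted p = 3.97e-09), and from 30.8 ± 2.80 to 204 ± 18.7 TPM in sorted cells (log2 fold change 2.69, limma adjusted p = 1.82e-08). The hexokinase genes Hk1 and Hk2, which trap glucose in the cell, rose in unsorted cells by log2 fold changes of 2.97 and 2.50 and in sorted cells by 2.22 and 2.34. Slc37a4, the transporter of glucose 6-phosphate into the endoplasmic reticulum, rose by 1.45 and 1.76.

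Genes that handle the glycogen particle also rose. Epm2a, which encodes the glycogen phosphatase laforin, went from 0.577 ± 0.128 to 19.8 ± 2.13 TPM in unsorted cells and from 0.327 ± 0.0814 to 8.31 ± 1.54 TPM in sorted cells (SD, n = 3), or log2 fold changes of 3.72 (limma adjusted p = 2.56e-08) and 2.80 (limma adjusted p = 3.6e-07). Stbd1, a starch-binding protein that anchors glycogen to membranes, rose by 2.67 and 2.55, from 13.6 ± 1.47 TPM in UN and 0.243 ± 0.0752 TPM in SN cells (SD, n = 3). The ratios of mean TPM were 6.73 and 26.2, and with a pseudocount of 0.1 the difference of responses, -0.12 with 1, was 1.49 and passed both thresholds (limma adjusted p = 0.00395). Stbd1 was called lower in sorted cells both in normoxia (log2 fold change -3.55) and in hypoxia (-3.67, limma adjusted p = 1.19e-08). Ppp1r3e, another phosphatase targeting subunit, rose by 2.76 in unsorted and 1.47 in sorted cells.

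A further pair of targeting subunits was called in other comparisons. Relative to UN cells, Ppp1r3f was called lower in UH (log2 fold change -1.57) and SN cells (-1.67), while in SH vs UH its libraries overlapped (0.54, limma adjusted p = 0.178). Ppp1r3d was called lower on sorting, both in normoxia (-1.15) and in hypoxia (-1.30), and lost the normoxic call with quantile normalization (-0.95). Counting Stbd1, 3 of the 27 genes were called lower in SN vs UN (11.1%, beside 7.57% of all genes called lower) and 4 in SH vs UH (14.8%, beside 5.35%), where Epm2a and Ppp1r3e joined Stbd1 and Ppp1r3d. No gene of the list was called higher in either.

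**Figure D4:**
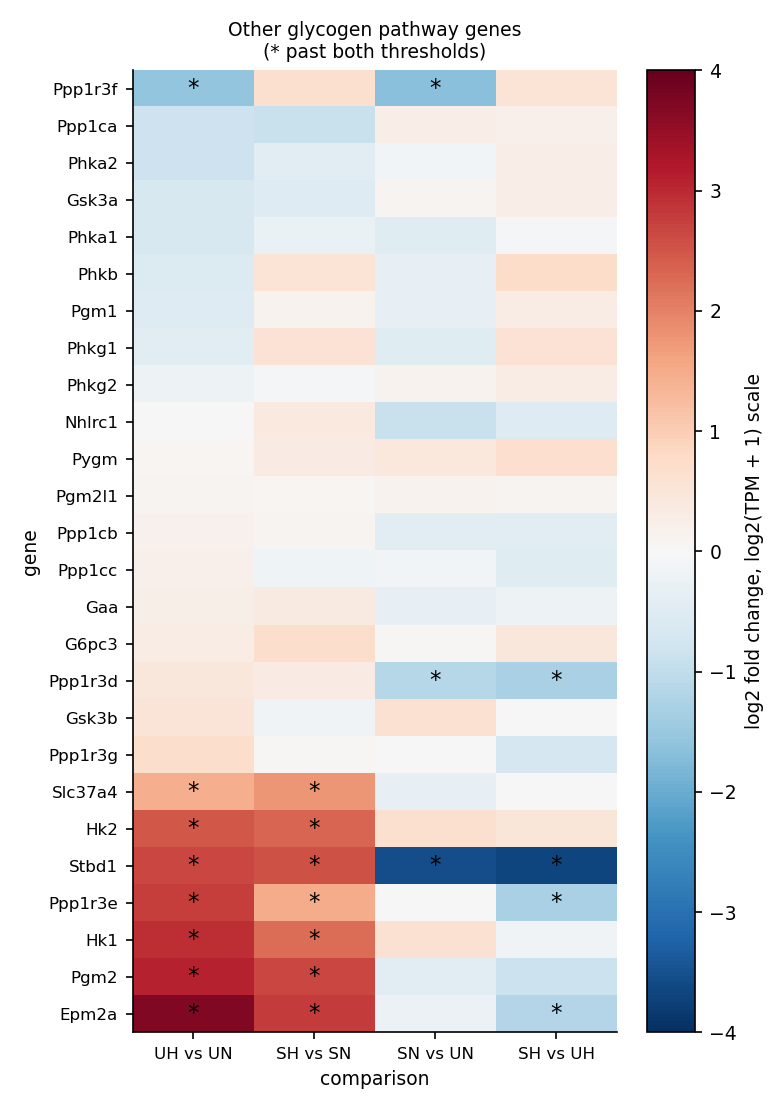
Log2 fold change on the log2(TPM + 1) scale of the other pathway genes that passed the filter, all but 1 of the 27, in 4 comparisons, ordered by UH vs UN, with asterisks on the genes past both thresholds. The 7 genes at the bottom, Slc37a4 to Epm2a, carry an asterisk for hypoxia in unsorted and in sorted cells.

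Among the 13567 genes with a mean of at least 1 TPM, the genes whose log2(TPM + 1) over the 12 libraries was most like that of Gbe1 were Egln1, Hk1, Pfkp, Map2k1 and Ero1l, with Pearson's r between 0.994 and 0.999. This is a description of 12 libraries in 4 groups, in which the step between normoxia and hypoxia weighs most. Egln1, which encodes an oxygen-dependent prolyl hydroxylase that acts on HIF, had means of 36.6 TPM in UN, 316 TPM in UH, 50.2 TPM in SN and 296 TPM in SH, with SN above UN as for Gbe1. Of the other glycogen genes, Gys1 had r = 0.977 with Gbe1, Ppp1r3b 0.925, Ppp1r3c 0.840, Pygl 0.463, Ugp2 -0.02, Gyg -0.66 and Pygb -0.91 over the same 12 libraries.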

How the data were processed

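The authors ran nf-core/rnaseq 3.12.0 and deposited the TPM that its Salmon step gave per gene and library. The build is mm10 per the labels, and the annotation is not given in the sources used here. Each library sums to 1000000 TPM, no scaling between libraries was applied, and depth cannot be recovered from TPM. Groups came from sample titles and columns from library names. Of the gene IDs, 98.8% were found in GENCODE M21 (GRCm38), which gave coordinates.

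TPM were tested as log2(TPM + 1) with limma 3.58.1 in R 4.3.3, with means for 4 groups and a trend. The study used DESeq2 on counts, which were not analysed here. Genes with a mean of at least 0.1 TPM entered, and p-values were adjusted over all of them. The code was tested on simulated data. Descriptions and figures used Python 3.11.15.

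The members and lists were chosen with earlier results of these data known. Named are the 9 members, pathway genes called in at least 1 of 4 comparisons, and the genes most correlated with each member. Pygm was added for the phosphorylase sum, and Phkb and Phkg1 after their values were seen. Alternatives were another pseudocount (0.1), 2 filters, 3 scalings, a replicate block, 2-group fits, no trend, no fold threshold and each library left out. Values of some genes of the pathway list are not reported here.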

Additional observations from a re-analysis of the deposited data

Results flagged for a closer look

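The response to hypoxia differed between sorted and unsorted cells, by the interaction term and both thresholds, for 1 glycogen gene and for 4 of the 27 other pathway genes tested (14.8%, beside 10.3% of all genes). Of the 4, 3 were higher and 1 lower, but with median-of-ratios scaling 1 was higher and 3 lower, and with quantile normalization 1 was higher and 2 lower. Epm2a gained a call there (-1.18 and -1.32), as did Hk1 with median-of-ratios scaling (-1.09). Pygl had a log2 difference of -3.32 (adjusted p = 0.000182, limma), which ranged from -3.72 to -2.65 over 8 other settings and from -3.71 to -3.08 with each library left out. Ppp1r3f had a difference of 2.21 (adjusted p = 0.00443, limma), with means of 12.8 TPM in UN, 3.72 TPM in UH, 3.30 TPM in SN and 5.69 TPM in SH. For Ppp1r3e, a smaller rise in sorted cells gave -1.29 (adjusted p = 0.0137, limma).

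The phosphorylase kinase subunit genes Phkb and Phkg1 fall outside the rule for named genes and were picked after their values were seen. Phkb had a difference of 1.09 (adjusted p = 0.0117, limma) and Phkg1, with means under 1 TPM in all 4 groups, had 1.05 (adjusted p = 0.000689, limma). Both lost the call in 2 of the other settings, and Phkb in 2 and Phkg1 in 1 of the 12 fits with a library left out. Phkg1, with a mean of 0.569 TPM over all libraries, was not tested under the filter of at least 1 TPM.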

How the results depend on the processing

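The 6 members called in UH vs UN stayed 6 with each library left out. The count in SH vs SN stayed 4, beside 12.5% of all genes in the main fit. Nothing is read from it, since that comparison served to choose Gbe1. In SN vs UN the count of 2 fell to 1 without a filter, with quantile normalization, under the replicate block (Ppp1r3c limma adjusted p = 0.0656) and in a fit of the compared groups, and ranged from 1 to 3 with each library left out. In each fit with 1 call, the call of Ppp1r3c was lost. The count in SH vs UH ranged from 2 to 3 with a library left out. Without the fold threshold, 7 members passed in SN vs UN, Gbe1 among them, beside 33.9% of all genes. In the difference of responses 2 passed, beside 22%, and median-of-ratios scaling also gave 2. The second gene there was Gbe1, which counts as a description in both comparisons and was not tested. For pathway genes, removal of the fold threshold gave 19 for hypoxia and 10 for sorting relative to UN, 13 for sorting in hypoxia, 13 for hypoxia in sorted cells and 8 in the difference of responses, and a pseudocount of 0.1 gave 5 in SN vs UN, where quantile normalization gave 2. The replicate block changed no other count by over 1.5 times. Whether same-numbered libraries were linked is not given in the sources used here. Between their deviations, 2 of 18 correlations exceeded 0.1 (range -0.12 to 0.17), which cannot decide it.

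The following signs turned. With a pseudocount of 0.1, the differences of responses became 0.028 for Ppp1r3b, 1.49 for Stbd1 and 0.60 for Ppp1r3d. With median-of-ratios scaling, they became -0.15 for Gys1 and -0.012 for Slc37a4, and with quantile normalization -0.060 for Slc37a4. Ppp1r3e in SN vs UN became 0.062, 0.31 and 0.0071 with median-of-ratios scaling, quantile normalization and without mitochondrial transcripts, which took 1.67% to 8.38% of TPM. Hk1 in SH vs UH became 0.020 with quantile normalization, and Slc37a4 there became 0.016 without mitochondrial transcripts. With a library left out, the lowest and highest values were -0.045 and 0.40 for Ugp2 in UH vs UN, -0.27 and 0.0024 for Gbe1, -0.74 and 0.10 for Ppp1r3c and -0.054 and 0.088 for Slc37a4 in SH vs UH, -0.10 and 0.060 for Ppp1r3e in SN vs UN, and -0.26 and 0.0081 for Stbd1 in the difference of responses. The cause was not tested. TPM give no depth, so values near 0, such as those of Gys2 and of Pygl in SN cells, have no counting error here.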

Other observations

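The genes most like the other members over the 12 libraries differed from those of Gbe1. For Gys1 they were P4hb, Pgk1 and Tmem74b, with r = 0.995 for each. P4hb, a subunit of collagen prolyl hydroxylase, had means of 1144 TPM in UN, 6834 TPM in UH, 790 TPM in SN and 5532 TPM in SH.

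Pygl was most like Dok5, Slc16a3 and Itga11, with r between 0.995 and 0.997. Slc16a3, the lactate exporter MCT4, had means of 3.24 TPM in UN, 76.8 TPM in UH, 0.423 TPM in SN and 0.966 TPM in SH, and Itga11, a collagen-binding integrin chain, had 3.00, 28.0, 0.0733 and 0.361 TPM in the same order. Ppp1r3b was most like Vhl, which encodes the subunit that marks HIF for degradation (r = 0.991), with means of 13.7, 65.9, 10.9 and 34.9 TPM in that order. Gyg was most like Pparg (r = 0.985), which had 7.70, 3.14, 2.93 and 2.56 TPM.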
